A study of Mus musculus with 8 samples.

Results

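Transcript levels were compared between *Lnc-Nr6a1*-depleted and control NMuMG cells, both after 2 h of TGF-β, in 4 of the 8 libraries of the series. The treated control group and the treated group labelled knockout each held 2 libraries, chosen by their sample labels, and all genes were described by function. NMuMG is a line of mouse mammary epithelium, grown in medium with serum and insulin, and treatment was with 10 ng/ml TGFβ1. Knockout cells had been made with Cas9 and guides at the promoter and the first exon of *Lnc-Nr6a1*, and clones were grown from individually sorted cells. How many clones stand behind the libraries is not given in the sources used here, so that genotype and the history of a clone cannot be told apart. The other 4 libraries, untreated cells of the same groups, were used for the shared estimate of spread and for values given beside the treated ones.

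TGF-β binds a pair of receptor kinases that phosphorylate SMAD proteins, which enter the nucleus and switch target genes within minutes to hours. In mammary epithelium it restrains the cell cycle and drives epithelial-mesenchymal transition (EMT), in which junctions are taken apart and the matrix is rebuilt. *Lnc-Nr6a1* is a long non-coding RNA read from within an intron of *Nr6a1*, and the genes of *miR-181a-2* and *miR-181b-2* lie directly downstream of it on the same strand.

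Of 37310 genes, 13028 passed the filter for low counts and were tested with edgeR's quasi-likelihood test, in which a gene was called if its p, adjusted by the Benjamini-Hochberg method, was below 0.05 and its log2 fold change exceeded 0.5 in either direction. Log2 fold changes are of the libraries labelled knockout over control, and levels are CPM, that is, counts scaled with TMM factors to the same total in each library. The treated libraries held 9895118 to 13574397 counts, and 3 counts, the floor of detection, stood for 0.238 to 0.317 CPM, a floor that covers counting error only. Replicates differed by a median of 0.33 on the log2 scale in treated control cells and 0.22 in the treated libraries labelled knockout. The study calls the replicates biological, but neither it nor the labels say whether they came from separate cultures or clones, so the p-values measure the spread between these libraries. Summed levels of luminal epithelial markers were 7972 to 10970 CPM in the treated libraries, with 3 of 10 at 0 in all of them, whereas none of the 5 lists for other cell types summed to more than 48.6 CPM. Most of the luminal sums came from *Krt8*, at 2990 to 4345 CPM, and *Krt18*, at 3014 to 5797 CPM. Other luminal markers were low, with *Cldn4* at 1.38 to 12.9 CPM. *Epcam* had 2 counts in treated control replicate 1 and none in the other treated libraries.

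The first exon is printed because a guide was aimed at it, and the miRNAs because their genes lie downstream of it. The same mature miRNAs are also made from another locus. *Lnc-Nr6a1*, listed as Gm13507 (ENSMUSG00000085201.1), lies at chr2:38678777-38707890 on the plus strand (NCBIM37). The opening 300 bases of its first exon, chr2:38678777-38679076, are given with no base marked, followed by the mature miRNAs from RefSeq (GRCm38.p6) with bases 2 to 8, the seed, in capitals.
Gm13507 first exon: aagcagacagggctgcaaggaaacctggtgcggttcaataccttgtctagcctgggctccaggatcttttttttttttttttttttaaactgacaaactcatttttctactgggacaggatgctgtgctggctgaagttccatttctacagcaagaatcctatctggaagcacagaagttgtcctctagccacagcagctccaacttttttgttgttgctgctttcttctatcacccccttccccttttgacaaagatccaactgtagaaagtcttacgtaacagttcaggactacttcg
miR-181a-5p: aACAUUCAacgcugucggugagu
miR-181b-5p: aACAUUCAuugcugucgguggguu
Both miRNAs carry the same seed. Gm13507 had 25 and 35 counts in the treated control libraries and 0 and 0 in the treated libraries labelled knockout, at least 12.5-fold lower (edgeR adjusted p = 0.00984). In untreated cells it had 3 and 14 counts in control and 11 and 7 under the knockout label, which it goes against, so the groups are called by their labels throughout. *Dsg2*, by contrast, separated the untreated groups as well, with 9.17 and 10.6 CPM in control and no count under the knockout label. *Mir181a-2* had 3 and 4 counts in treated control cells and *Mir181b-2* had 0 and 5, both were at 0 in the treated libraries labelled knockout, and neither passed the filter. These counts are on the hairpin genes, not on mature miRNAs. *Nr6a1*, a nuclear receptor gene on the opposite strand, stood at 8.62 and 7.62 CPM in treated control cells. In those labelled knockout it stood at 19.4 and 18.99 CPM, from 238 and 239 counts, where Gm13507 had none. Whether strand was used in counting is not given, but in these libraries the reads of *Nr6a1* were not counted on Gm13507. Of the 11 genes listed at the locus and around it, 6 were tested, 1 was called higher and 1 lower.

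The 3′ UTRs of 1955 tested genes held the 7 letters that pair with the seed (TGAATGT), out of 11209 tested genes with an annotated 3′ UTR. Their median log2 difference was −0.01, and it was 0.03 in the 9254 genes without them. After correction for exonic GC content these medians were 0.13 and 0.03. Before it, 9.003% of the genes with the letters were called higher and 6.496% lower, beside 9.758% and 6.689% of those without. The median length of the 3′ UTRs was 2301 bases with the letters and 968.5 bases without them. Whether this length had a part in the medians was not tested. The letters are a description and not a mapped binding site.

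In total 1959 of the 13028 genes (15%) were called between the treated groups, 1103 of them higher (8.47%) and 856 of them lower (6.57%) where the label was knockout, around a median log2 difference of −0.01. The called genes differed in base composition, with a median exonic GC content of 55.1% for those called higher and 46.6% for those called lower, beside 49.7% for all. From the most AT-rich decile of genes (median GC 39.9%) to the most GC-rich (59.4%) the median log2 difference between genotypes ran from −0.32 to 0.43. The difference between the replicates of treated control cells ran along the same axis, from −0.37 to 0.46, and between the treated replicates labelled knockout from 0.30 to −0.16. A smooth curve of level on GC content was therefore removed from each library and the test repeated, which called 1023 genes higher (7.85%) and 883 lower (6.78%). Of the genes called higher in the uncorrected test, 772 (70.0% of these, 75.5% of the corrected calls) were also called after correction, as were 618 of those called lower (72.2% and 70.0%). Where the correction ended a call, the value after it stands beside the result. For every gene list below, 8.47% higher and 6.57% lower are the shares over all genes tested. Medians of the lists are those before GC correction unless stated.

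**Figure D1:**
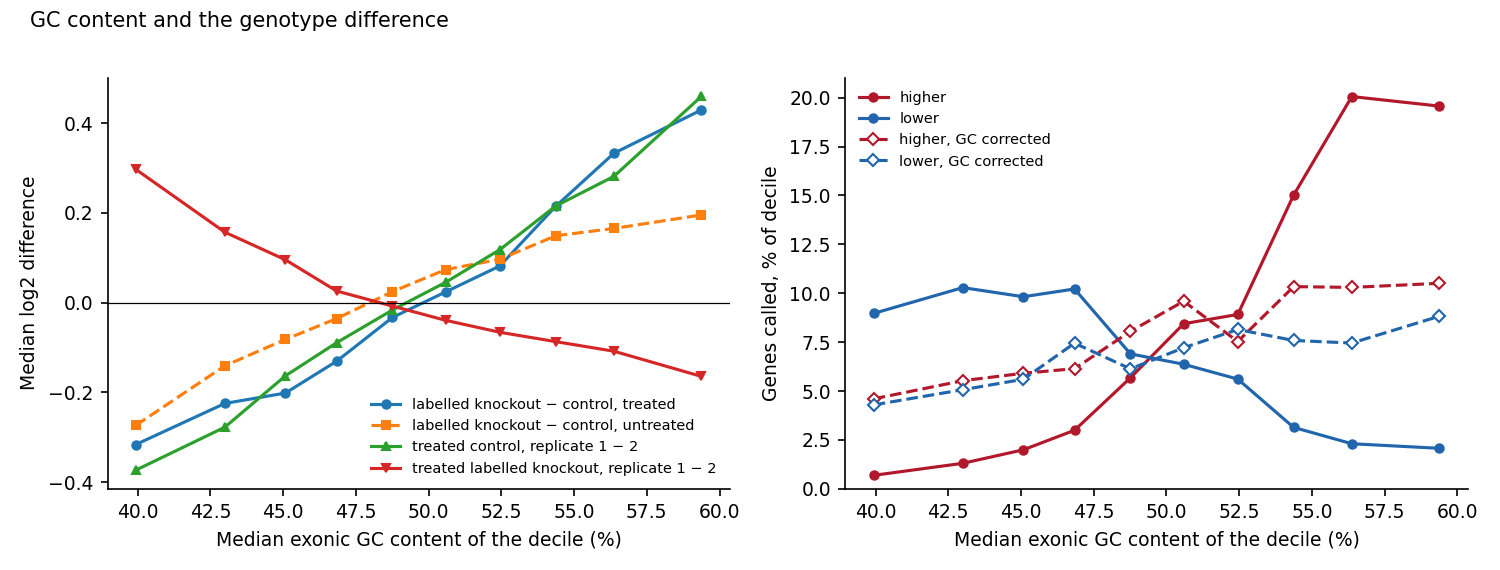
The left panel plots the median log2 difference (vertical axis) in each decile of genes by exonic GC content in percent (horizontal axis), for the treated and the untreated genotype comparison and for the 2 pairs of treated replicates, and the right panel the percent of genes called higher or lower in each decile, before and after GC correction. The treated genotype difference runs from −0.32 to 0.43 and that between the treated control replicates from −0.37 to 0.46, and the percent called higher runs from 0.69 to 19.6 before correction and from 4.6 to 10.5 after it.

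The calls also rested on particular libraries. Fitted on the 4 treated libraries alone, 262 genes were called higher (2.05%) and 148 lower (1.16%). Without treated control replicate 1 the calls were 1622 higher (12.2%) and 1140 lower (8.55%), and without treated control replicate 2 they were 688 (5.17%) and 510 (3.83%). Without the first treated library labelled knockout they were 771 (5.77%) and 455 (3.4%), and without the second 335 (2.51%) and 142 (1.06%). Called whichever of the 4 treated libraries was left out were 300 of the genes called higher and 108 of those called lower. In untreated cells, from other libraries, 134 genes were called higher (1.03%) and 104 lower (0.798%), of which 121 (90.3%) and 95 (91.3%) were called in the same direction after TGF-β and none in the opposite one. The genes called after TGF-β had the same sign in untreated cells in 92.2% of those higher and 91.2% of those lower, beside 52.0% above 0 and 47.9% below 0 for all genes. Their median untreated differences were 0.41 and −0.42. The medians after TGF-β, 0.95 and −0.89, come from the values that chose these genes, and the sizes are not compared. The difference of the 2 genotype effects, the interaction, passed the threshold for 0 genes in edgeR, with 1134 at an unadjusted p below 0.05, and for 23 in DESeq2, 0 in limma-voom and 3 in edgeR after GC correction.

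Of 100 called genes followed singly, 60 were called whichever library was left out, and none changed sign. Without the second treated library labelled knockout 37 were not called (edgeR adjusted p = 0.0506 to 0.263), which were *Gm13507*, *Prim1*, *Mcm6*, *Cenpe*, *Hist1h4m*, *Gadd45g*, *Sesn2*, *Cdkn2a*, *Ppl*, *Perp*, *Cdh1*, *Itga3*, *Itga1*, *Lama5*, *Plec*, *Col18a1*, *Agrn*, *P4ha1*, *Myh10*, *Ltbp1*, *Ltbp3*, *Tgfb1*, *Pmepa1*, *Ski*, *Snai1*, *Bhlhe40*, *Id2*, *Fosl2*, *Arc*, *Jag1*, *Sema4d*, *Unc5c*, *Axin2*, *Pfkp*, *Aldoc*, *Ldha* and *Rps3*. Without treated control replicate 2, 16 were not called (edgeR adjusted p = 0.0504 to 0.16), all among the 37. Without the first treated library labelled knockout 14 were not called (edgeR adjusted p = 0.0518 to 0.227), including *Ccnd2*, *Timp3* and *Neat1*, and without treated control replicate 1 the 4 not called were *Cdh1*, *Id2*, *Axin2* and *Ldha* (edgeR adjusted p = 0.0677 to 0.119). Without 1 of the untreated libraries 6 to 10 were not called (edgeR adjusted p = 0.0501 to 0.0802), among them *Cdkn2a*, *Perp* and *Snai1*.

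Genes of the cell cycle were lower in the treated libraries labelled knockout. Of 52 tested genes of DNA replication, 32 fell and none rose, with a median log2 difference of −0.75, and 19 of 48 mitosis genes and 19 of 66 replication-dependent histone genes fell and none rose, with medians of −0.75 and −0.66. The libraries of the 2 groups did not overlap, lower in those labelled knockout, for 47, 33 and 53 of these genes (27.4% of all genes tested). In untreated cells the medians were −0.15, −0.20 and −0.08. After GC correction 34, 18 and 43 genes were called lower. In bulk RNA, fewer cycling cells and less of these transcripts in each cell cannot be told apart.

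Among the genes that license and fire replication origins, *Cdc6*, which loads the replicative helicase, had 38.5 and 44.6 CPM in treated control cells and, where the label was knockout, 17.0 and 14.2 CPM. The groups lay apart, and the log2 fold change was −1.41 (SE 0.19, edgeR adjusted p = 0.00272), whereas untreated *Cdc6* stood at 49.3 and 49.4 CPM against 40.6 and 52.1 CPM, where the groups overlapped. *Prim1*, the catalytic primase subunit, fell from 69.8 and 104 CPM to 43.7 and 31.2 CPM, by 1.21 on the log2 scale (SE 0.22, edgeR adjusted p = 0.00905). The sliding clamp *Pcna*, the most abundant member of the list that was not called, stood at 204 and 246 CPM in control, and under the knockout label at 189 and 168 CPM. Its groups did not overlap, but the difference did not pass the test (log2 fold change −0.33, edgeR adjusted p = 0.191).

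*Mki67*, the proliferation antigen that coats mitotic chromosomes, had 1446 and 2084 CPM in treated control cells and 885 and 619 CPM in the treated libraries labelled knockout (log2 fold change −1.23, SE 0.21, edgeR adjusted p = 0.00738). *Plk4*, the kinase that starts centriole duplication, fell from 64.7 and 84.7 CPM to 34.8 and 31.9 CPM, by 1.16 on the log2 scale (edgeR adjusted p = 0.00658). *Cenpe*, a kinetochore motor, fell by 1.19 (SE 0.28, edgeR adjusted p = 0.0218). In all 3 the control libraries lay wholly above the others, with control replicate 2 the highest library and the second library labelled knockout the lowest. The spindle motor *Kif11* followed the same order, with 362 and 567 CPM against 312 and 167 CPM, and did not pass the test (log2 fold change −0.96, edgeR adjusted p = 0.054). *Anln*, which scaffolds the cytokinetic ring, was not called either (log2 fold change −0.50, edgeR adjusted p = 0.114).

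Replication-dependent histone genes, which are transcribed in S phase, took 0.735 and 0.620% of the counts in the treated control libraries and 0.463 and 0.333% in those labelled knockout. In untreated cells the shares overlapped, at 1.06 and 0.850% against 0.810 and 0.971%. *Hist2h2bb* had the largest decrease on this list, from 437 and 660 CPM to 232 and 158 CPM (log2 fold change −1.49, SE 0.23, edgeR adjusted p = 0.00516). The linker histone *Hist1h1a* fell from 269.7 and 344 CPM to 149 and 89.9 CPM, by 1.36 (SE 0.23, edgeR adjusted p = 0.00689), and *Hist1h4m* fell by 1.40 (SE 0.33, edgeR adjusted p = 0.0234). Histone genes have near-identical copies, so that reads may have been split between them.

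The counts of these lists depended on the libraries. With the second treated library labelled knockout left out, 3 replication, 3 mitosis and 2 histone genes were called lower. Without treated control replicate 2 they were 18, 9 and 29, without treated control replicate 1 they were 32, 28 and 10, and without the first library labelled knockout 30, 31 and 19. Fitted on the treated libraries alone, 3, 1 and 2 were called. The interaction with TGF-β reached an unadjusted p below 0.05 for 23 replication, 9 mitosis and 19 histone genes and passed adjustment in edgeR for none of them.

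**Figure D2:**
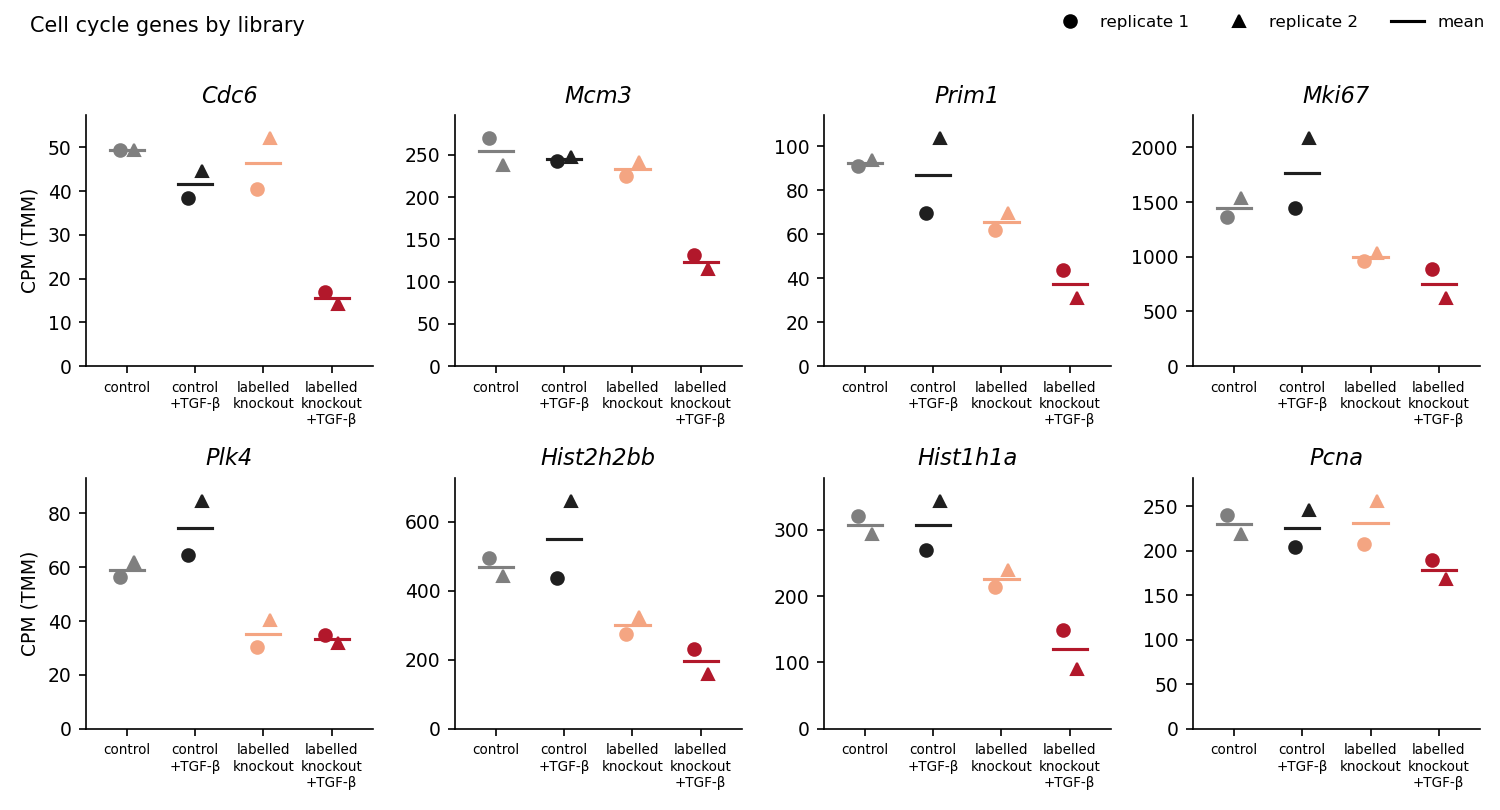
Levels of 8 cell cycle genes in CPM (vertical axis) in the 8 libraries, by group, with a circle for replicate 1, a triangle for replicate 2 and a line at the mean. The treated libraries labelled knockout lie below both treated control libraries in every panel, and the untreated groups overlap for *Cdc6*, where the libraries labelled knockout had 40.6 and 52.1 CPM.

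E2F factors drive S-phase genes, and the promoters of the replication genes are shown for this reason. RefSeq promoters (GRCm38.p6), from 250 bases before to 50 after the start, were searched on both strands for the letters TTTGGCGC, TTTCCCGC, TTTGCCGC and TTTCGCGC, with overlapping matches counted. Of 50 promoters of tested replication genes 17 (34%) held them, as did 10 of 25 (40%) of those of genes called lower, beside 490 of 11774 promoters of all tested genes (4.16%). The promoters of the helicase subunits *Mcm6* (chr1:128359656-128359955, minus strand) and *Mcm3* (chr1:20820263-20820562, minus strand) are given 5′ to 3′ with the matched letters in capitals.
Mcm6 promoter: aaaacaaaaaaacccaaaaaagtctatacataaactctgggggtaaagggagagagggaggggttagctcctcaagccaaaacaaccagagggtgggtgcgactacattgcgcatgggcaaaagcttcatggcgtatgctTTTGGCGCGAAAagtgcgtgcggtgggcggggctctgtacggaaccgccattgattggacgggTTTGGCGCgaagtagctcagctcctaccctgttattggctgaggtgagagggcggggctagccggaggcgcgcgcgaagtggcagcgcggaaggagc
Mcm3 promoter: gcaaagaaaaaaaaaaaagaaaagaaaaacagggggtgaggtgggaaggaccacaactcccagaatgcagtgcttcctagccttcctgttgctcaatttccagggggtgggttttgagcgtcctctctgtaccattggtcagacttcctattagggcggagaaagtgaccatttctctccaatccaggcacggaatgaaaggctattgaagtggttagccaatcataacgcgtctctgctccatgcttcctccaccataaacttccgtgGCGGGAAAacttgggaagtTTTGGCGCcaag
*Mcm6*, named for its promoter, had 359 and 422 CPM in treated control cells and 244 and 212 CPM in the treated libraries labelled knockout (log2 fold change −0.77, SE 0.15, edgeR adjusted p = 0.0104). *Mcm3*, named for the same reason, fell from 242 and 247 CPM to 132 and 115 CPM, by 0.99 (SE 0.14, edgeR adjusted p = 0.00339). The letters TTTGAA, the core of the element found in promoters of mitotic genes, were in 30 of 42 promoters of mitosis genes (71.4%), in 13 of 17 of those called lower (76.5%) and in 12.2% of the promoters of all tested genes. Histone genes held them in 26 of 57 promoters (45.6%), and in 9 of 17 of those called lower (52.9%). For the replication genes it was 7 of 50 (14%). A match in these windows is a description and does not show binding.

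Of 36 tested G1 regulators and p53 targets, 4 rose and 4 fell (median 0.19). Cyclin D2, *Ccnd2*, which carries cells through G1, fell from 24.1 and 19.05 CPM to 3.99 and 6.36 CPM (log2 fold change −2.06, SE 0.42, edgeR adjusted p = 0.0137). The growth arrest gene *Gadd45g* rose from 33.2 and 26.0 CPM to 61.9 and 75.0 CPM (log2 fold change 1.21, edgeR adjusted p = 0.00731). *Sesn2*, a stress-responsive inhibitor of mTORC1, rose by 1.16 (edgeR adjusted p = 0.00776). *Cdkn2a*, which encodes inhibitors of the G1 kinases and of Mdm2, rose by 0.98 (edgeR adjusted p = 0.0341) and was not called after GC correction, at 0.60. Without treated control replicate 1, treated control replicate 2, the first and the second treated library labelled knockout, in this order, 7, 2, 2 and 0 members of the list were called higher and 4, 3, 1 and 1 lower.

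Of 10 tested desmosome genes, 5 rose and 1 fell, with a median log2 difference of 0.92, and the numbers were the same after GC correction. Desmosomes tie the keratin filaments of neighbouring cells together. *Jup*, plakoglobin, which links the desmosomal cadherins to the plaque, had 268 and 256 CPM in treated control cells and 584 and 657 CPM in those labelled knockout (log2 fold change 1.24, SE 0.13, edgeR adjusted p = 0.00101). In untreated cells it had 267 and 247 CPM against 327 and 327 CPM, a difference of 0.35 that did not pass the test (edgeR adjusted p = 0.24). Desmoplakin, *Dsp*, which anchors the keratins, rose from 215 and 288 CPM to 531 and 564 CPM (log2 fold change 1.12, edgeR adjusted p = 0.00445). Plakophilin 1, *Pkp1*, rose from 53.4 and 39.9 CPM to 100.5 and 191 CPM, by 1.64 on the log2 scale (SE 0.27, edgeR adjusted p = 0.00668), with a wide gap between the libraries labelled knockout. The plaque protein periplakin, *Ppl*, rose from 83.9 and 87.1 CPM to 131 and 164 CPM (log2 fold change 0.78, edgeR adjusted p = 0.0101), while untreated it stood at 194 and 204 CPM in control and 178 and 178 CPM under the knockout label, the opposite order. *Perp*, a p53 target of the desmosome, rose by 0.65 (edgeR adjusted p = 0.0372). The desmosomal cadherin *Dsg2* went the other way, with 6.93 and 10.8 CPM in treated control cells and no count in the libraries labelled knockout, at least 36.7-fold lower (edgeR adjusted p = 0.00109). When the second treated library labelled knockout was left out, 3 desmosome genes were called higher.

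Of 16 adherens junction and immunoglobulin adhesion genes 3 rose and none fell (median 0.10), and of 15 tight junction genes 3 rose and none fell (median 0.21). Tight junction genes called higher numbered 1 without treated control replicate 2 and also 1 without the second treated library labelled knockout. E-cadherin, *Cdh1*, had 238 and 242 CPM in treated control cells and 333 and 400 CPM in those labelled knockout (log2 fold change 0.61, SE 0.17, edgeR adjusted p = 0.0433). *Cdh13*, a cadherin held by a lipid anchor, rose from 27.0 and 24.0 CPM to 65.0 and 73.5 CPM, by 1.44 (SE 0.16, edgeR adjusted p = 0.0014). The laminin receptor *Bcam* rose from 5.06 and 5.29 CPM to 18.4 and 22.8 CPM, by 1.99 (SE 0.26, edgeR adjusted p = 0.00242). For *Cdh13* and *Bcam* the untreated difference also passed the test, at 0.91 and 1.84 (edgeR adjusted p = 0.027 and 0.012).

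All 17 tested genes of the basement membrane and its linkers had positive log2 differences (median 0.69), 13 did not overlap between the groups, higher in those labelled knockout (28.4% of all genes tested), and 6 rose and none fell. After GC correction 7 rose. Laminin β3, *Lamb3*, a chain of laminin-332, had 577 and 470.1 CPM in treated control cells and 1529 and 1629 CPM in those labelled knockout (log2 fold change 1.59, SE 0.15, edgeR adjusted p = 0.000759). In untreated cells it had 276 and 305 CPM against 559 and 492 CPM (log2 fold change 0.86, edgeR adjusted p = 0.022). *Plec*, which links integrin β4 to keratin filaments, rose from 789 and 465 CPM to 1178 and 2046 CPM (log2 fold change 1.36, SE 0.29, edgeR adjusted p = 0.0152). The laminin chains *Lama5* and *Lamb2* rose by 1.13 and 1.11 (edgeR adjusted p = 0.0133 and 0.00618), the basement membrane collagen *Col18a1* by 1.10 (adjusted p = 0.0192) and the heparan sulphate proteoglycan *Agrn* by 1.01 (adjusted p = 0.0233). Without the second treated library labelled knockout 2 genes of this list were called, without treated control replicate 2 there were 5, and without treated control replicate 1 or the first library labelled knockout there were 11 and 10.

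Integrins are the receptors for these ligands, and 3 of 13 rose and 1 fell (median 0.35). Integrin β4, *Itgb4*, the hemidesmosome subunit that binds laminin-332, rose from 119 and 70.9 CPM to 219.5 and 309.8 CPM (log2 fold change 1.48, SE 0.25, edgeR adjusted p = 0.00731), while in untreated cells it had 124 and 133 CPM against 172 and 209.9 CPM. *Itga3*, a subunit of other laminin-binding integrins, rose by 0.74 (edgeR adjusted p = 0.0286) and was not called after GC correction, at 0.40. The collagen receptor *Itga1* fell from 29.0 and 46.1 CPM to 16.9 and 16.4 CPM (log2 fold change −1.17, edgeR adjusted p = 0.0136). Without the second treated library labelled knockout or without treated control replicate 2, 2 integrins were called higher, and without treated control replicate 1 there were 5. The integrin that fell was not called without either of the former.

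**Figure D3:**
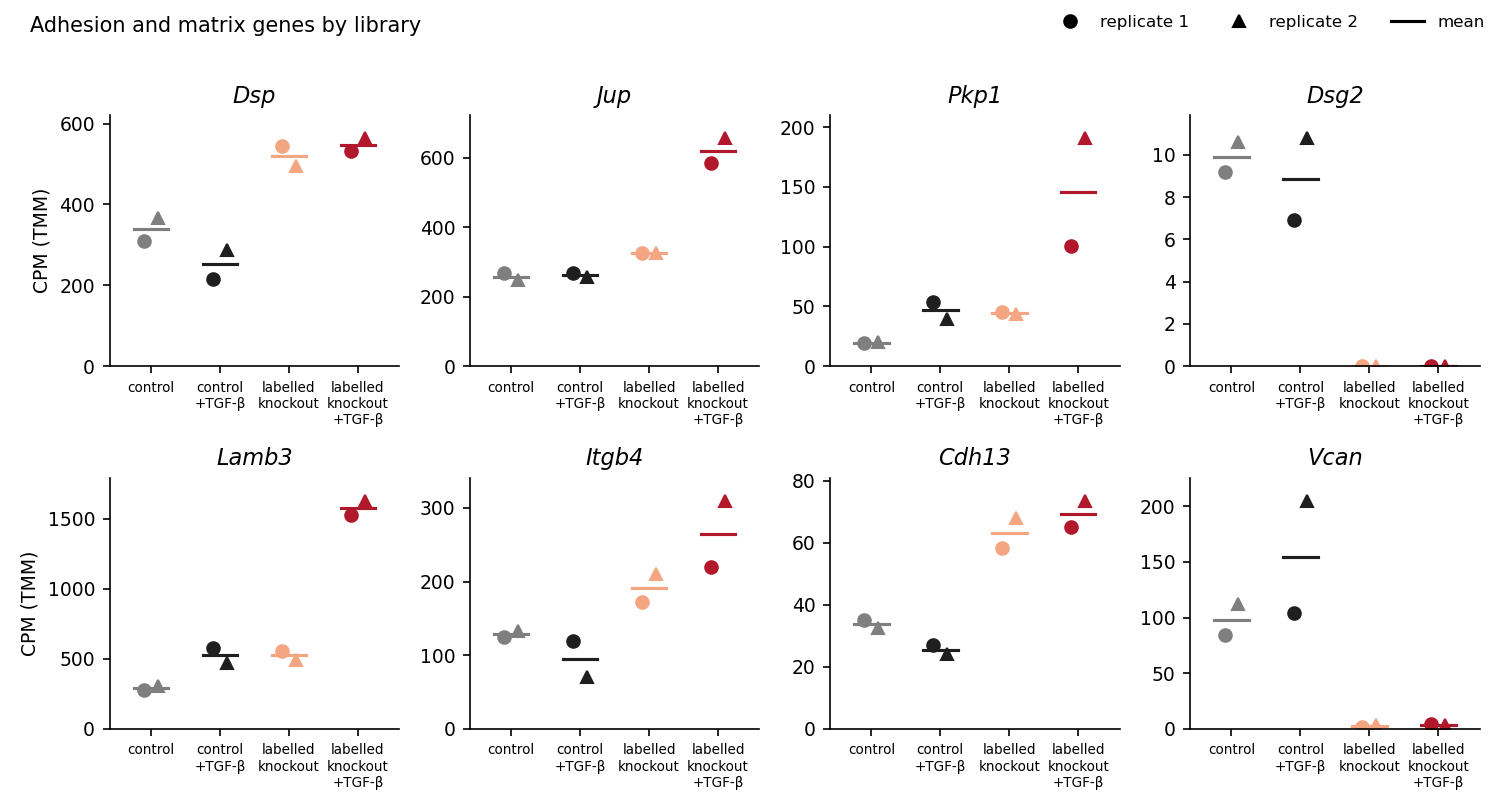
Levels of 8 adhesion and matrix genes in CPM (vertical axis) in the 8 libraries, by group, with a circle for replicate 1, a triangle for replicate 2 and a line at the mean. Among treated libraries those labelled knockout lie above control for *Dsp*, *Jup*, *Pkp1*, *Lamb3*, *Itgb4* and *Cdh13*, and at 0 for *Dsg2* and at 4.16 and 3.18 CPM for *Vcan*, below control.

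Of 21 interstitial matrix genes 7 rose and 3 fell (median 0.60). *Vcan*, versican, a large chondroitin sulphate proteoglycan, had 104 and 205 CPM in treated control cells and 4.16 and 3.18 CPM in those labelled knockout (log2 fold change −5.39, SE 0.40, edgeR adjusted p = 0.000256), and its untreated difference was −5.37. The fibrillar collagen *Col5a1* rose from 20.7 and 27.7 CPM to 109 and 105 CPM, by 2.15 (SE 0.23, edgeR adjusted p = 0.00112). *Col15a1* rose from 13.6 and 14.3 CPM to 48.0 and 50.3 CPM (log2 fold change 1.82, edgeR adjusted p = 0.00109), and the lysyl oxidase *Loxl4*, which cross-links collagen, by 1.58 (edgeR adjusted p = 0.00242). *P4ha1*, which hydroxylates collagen prolines, fell by 0.86 (edgeR adjusted p = 0.0102). Of 16 mucin, proteoglycan and hyaluronan genes 5 rose and 2 fell (median 0.28). Syndecan 3, *Sdc3*, a heparan sulphate proteoglycan of the membrane, rose from 42.3 and 24.4 CPM to 244 and 268 CPM, by 2.94 (SE 0.25, edgeR adjusted p = 0.000477). Members of the proteoglycan list called higher numbered 3 without treated control replicate 2, 3 without the first treated library labelled knockout and 2 without the second, and 1 was called lower under each omission of a treated library. In the interstitial matrix list 1 was called lower without the second treated library labelled knockout.

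Of 21 matrix proteases and inhibitors 3 rose and 1 fell (median 0.36). The membrane-bound metalloproteinase *Mmp15* rose from 4.40 and 3.49 CPM to 24.0 and 28.1 CPM (log2 fold change 2.71, SE 0.23, edgeR adjusted p = 0.000477), and the inhibitor *Timp3* fell from 21.4 and 14.3 CPM to 2.77 and 5.64 CPM (log2 fold change −2.08, SE 0.41, edgeR adjusted p = 0.0141). Called lower on this list were 2 without treated control replicate 2 or without the second treated library labelled knockout, and none without the first.

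Of 33 genes of the actin cytoskeleton and focal adhesions 8 rose and 2 fell (median 0.39). Talin, *Tln1*, which couples integrins to actin, rose from 212 and 199 CPM to 379 and 464 CPM (log2 fold change 1.04, SE 0.15, edgeR adjusted p = 0.0037), and in untreated cells it differed by 0.05. Tensin 1, *Tns1*, another link between integrins and actin, rose by 2.11 (edgeR adjusted p = 0.00117). The actin-binding calponin *Cnn3* fell from 157 and 163 CPM to 79.4 and 90.4 CPM, by 0.91 (edgeR adjusted p = 0.00619). The non-muscle myosin *Myh10* was called lower (edgeR adjusted p = 0.0233) with 28 and 27 counts in control and 1 and 3 counts in the libraries labelled knockout. Of 13 keratin and vimentin genes 1 rose, *Krt6a*, a keratin of activated epithelium, from 9.37 and 7.73 CPM to 35.9 and 27.7 CPM (log2 fold change 1.89, SE 0.21, edgeR adjusted p = 0.00129). *Krt18*, with 5797 and 3854 CPM against 3014 and 4363 CPM, had overlapping groups and was not called. After GC correction *Krt18* was called lower (log2 fold change −0.70, edgeR adjusted p = 0.0166). When the second treated library labelled knockout was left out, 2 cytoskeletal genes were called higher, without treated control replicate 2 there were 5, and without the first library labelled knockout 12. Called lower was 1 under each of these omissions.

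Of 13 EMT-inducing transcription factors 1 was called, *Snai1*, a repressor of E-cadherin, at 15.3 and 12.5 CPM in treated control cells and 26.1 and 21.9 CPM in those labelled knockout (log2 fold change 0.79, SE 0.23, edgeR adjusted p = 0.0479). After GC correction it was at 0.38 and not called. Without treated control replicate 1, 4 of these factors were called higher, and without the second treated library labelled knockout none was. Of 10 epithelial identity factors 3 rose and 1 fell (median 0.52), and 1 rose and 2 fell after GC correction. Without treated control replicate 2, or without the second treated library labelled knockout, 1 of them was called higher, and without treated control replicate 1 there were 5. *Ehf*, an epithelial Ets factor, fell from 19.7 and 27.7 CPM to 1.96 and 2.38 CPM (log2 fold change −3.44, SE 0.33, edgeR adjusted p = 0.000812). *Spint2*, an inhibitor of membrane serine proteases, rose from 34.9 and 44.7 CPM to 114 and 137 CPM (log2 fold change 1.66, SE 0.17, edgeR adjusted p = 0.00091). In untreated cells *Spint2* had 87.8 and 87.0 CPM against 100.3 and 101 CPM.

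In the TGF-β pathway itself, 2 of 18 SMADs and SMAD regulators rose (median 0.13), beside 8.47% of all genes tested. Of 24 ligands, receptors and latent complex genes 3 rose and 2 fell (median 0.30). Both decreases were in the activin branch. *Inhbb*, the activin βB chain, had 12.3 and 8.15 CPM in treated control cells and 0.978 and 1.19 CPM in those labelled knockout (log2 fold change −3.22, SE 0.36, edgeR adjusted p = 0.00117). Its antagonist follistatin, *Fst*, fell from 80.8 and 59.7 CPM to 13.5 and 24.6 CPM (log2 fold change −1.88, SE 0.28, edgeR adjusted p = 0.00395). Both were called lower in untreated cells as well, at −5.45 and −3.49. *Ltbp1* and *Ltbp3*, which hold latent TGF-β in the matrix, rose by 0.81 and 1.01 (edgeR adjusted p = 0.0103 and 0.0212). The ligand *Tgfb1* rose by 0.94 (edgeR adjusted p = 0.0313), with 19.2 and 12.8 CPM against 27.6 and 34.0 CPM, and was not called after GC correction at 0.52. Without the second treated library labelled knockout none of these ligand and receptor genes was called higher, and without treated control replicate 2 there was 1. SMADs and their regulators called higher numbered 6 without treated control replicate 1, 1 without treated control replicate 2, 1 without the first library labelled knockout and none without the second.

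Of 34 early TGF-β target genes 4 rose and 1 fell (median 0.43), and 2 rose and 1 fell after GC correction (median 0.22). Of all genes tested 8.47% were called higher and 6.57% lower. *Pmepa1*, a target that limits SMAD signalling, rose from 347 and 262 CPM to 522 and 648 CPM (log2 fold change 0.94, SE 0.17, edgeR adjusted p = 0.00838). *Bhlhe40*, a repressor of the clock and of differentiation genes, rose from 213 and 196 CPM to 385 and 468 CPM, by 1.06 (SE 0.20, edgeR adjusted p = 0.00972), and in untreated cells it had 61.2 and 73.6 CPM against 82.7 and 56.4 CPM. The SMAD co-repressor *Ski* rose by 0.59 (edgeR adjusted p = 0.0235) and *Id2*, an inhibitor of basic helix-loop-helix factors, fell by 0.82 (edgeR adjusted p = 0.029), and after GC correction neither was called, at 0.31 and −0.56. *Ctgf*, a matricellular target of SMAD and YAP, had 630 and 438 CPM against 627 and 1117 CPM, with overlapping groups (edgeR adjusted p = 0.108). Without the second library labelled knockout none of these targets was called higher, and without treated control replicate 2 there were 2 and without replicate 1 there were 9. Called lower were 2 without the second library labelled knockout or treated control replicate 2, and none without treated control replicate 1 or the first library labelled knockout.

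Of 33 immediate-early and AP-1 genes 3 rose and none fell, beside 8.47% higher and 6.57% lower of all genes tested. Their median was 0.60. After GC correction it was 0.34, with 3 higher and 1 lower. *Fosl2*, an AP-1 subunit, rose from 239 and 172 CPM to 318 and 438 CPM (log2 fold change 0.88, SE 0.21, edgeR adjusted p = 0.0229). *Spred2*, an inhibitor of the Ras pathway, rose from 27.6 and 24.9 CPM to 51.3 and 52.3 CPM (log2 fold change 0.98, edgeR adjusted p = 0.00646), and *Arc*, an activity-regulated gene, from 1.41 and 1.06 CPM to 3.83 and 8.66 CPM (log2 fold change 2.32, edgeR adjusted p = 0.0261). Without the second treated library labelled knockout or without treated control replicate 2, 1 gene of this list was called higher, while without treated control replicate 1 there were 9 and without the first library labelled knockout 7.

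Several inducible genes differed more within the treated groups than between them. *Ptgs2*, the inducible cyclooxygenase, had 671 and 107 CPM in treated control cells and 28.9 and 611 CPM in those labelled knockout, so that the highest and the lowest library bore the same number in opposite groups. The chemokine *Ccl2* had 1051 and 367 CPM against 109 and 1237 CPM, and the growth factor *Pdgfb* 385 and 137 CPM against 99.6 and 604 CPM. The AP-1 subunit *Junb* had 589 and 259 CPM against 497 and 787 CPM. None of these 4 genes was called (edgeR adjusted p = 0.883, 0.962, 0.709 and 0.252). In untreated cells *Ptgs2* replicates lay close together, at 73.7 and 70.2 CPM against 17.9 and 17.8 CPM. Of 34 tested genes of the cytokine, chemokine and NF-κB list 1 rose and 1 fell (median −0.02). Called higher on this list were 3 without treated control replicate 1, 3 without the first treated library labelled knockout and none without the second, and called lower were 2, 0 and 6.

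**Figure D4:**
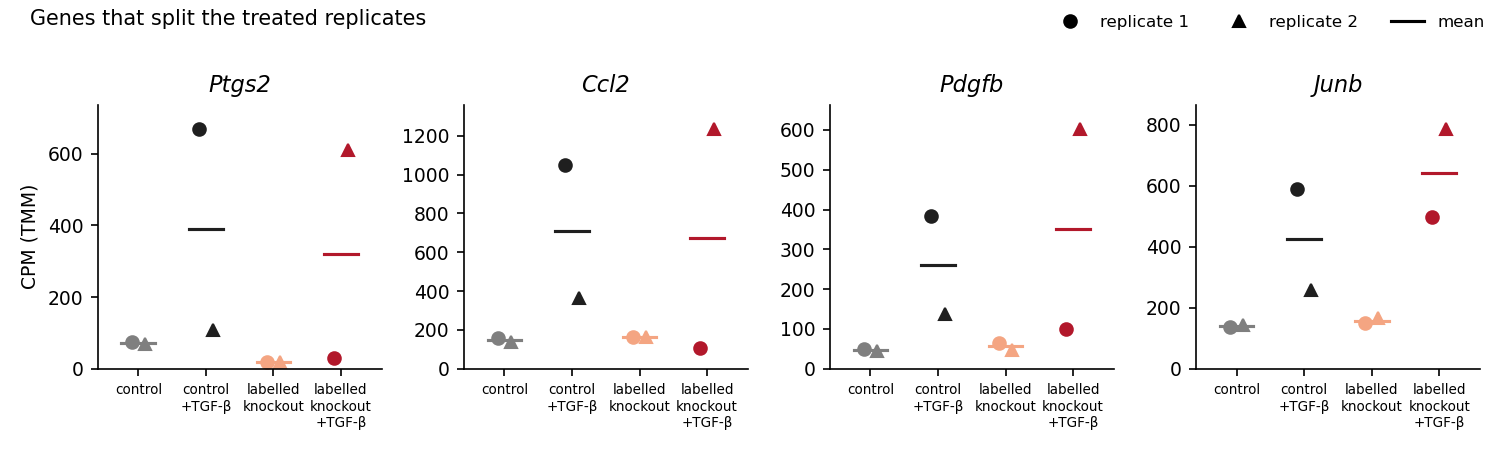
Levels of *Ptgs2*, *Ccl2*, *Pdgfb* and *Junb* in CPM (vertical axis) in the 8 libraries, by group, with a circle for replicate 1, a triangle for replicate 2 and a line at the mean. Among treated libraries replicate 1 is the higher in control and the lower in those labelled knockout for all 4 genes, as in *Ptgs2* with 671 and 107 CPM against 28.9 and 611 CPM.

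Of 27 semaphorin, slit and netrin guidance genes 9 rose and 3 fell (median 0.58), and 7 rose and 3 fell after GC correction (median 0.30). The secreted *Sema3f* rose from 39.8 and 37.0 CPM to 79.1 and 83.4 CPM (log2 fold change 1.08, SE 0.15, edgeR adjusted p = 0.00287), the membrane-bound *Sema4d* rose by 1.29 (adjusted p = 0.00876) and the receptor *Plxna3* by 1.54 (adjusted p = 0.00776). The netrin receptor *Unc5c* was called lower (edgeR adjusted p = 0.00627), with 43 and 39 counts in control and 3 and 1 counts in the libraries labelled knockout. When the second treated library labelled knockout was left out, 3 genes of this list were called higher, and without treated control replicate 2 there were 5. Called lower was 1 without treated control replicate 2, 1 without the first library labelled knockout and none without the second.

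Of 15 Eph receptors and ephrins 3 rose and 1 fell (median 0.22). The ephrin *Efnb1* rose from 29.8 and 20.3 CPM to 69.1 and 84.3 CPM (log2 fold change 1.61, SE 0.26, edgeR adjusted p = 0.00565) and *Efnb2* from 28.0 and 21.8 CPM to 53.9 and 101 CPM (log2 fold change 1.64, SE 0.29, edgeR adjusted p = 0.0084). Among the receptors, *Ephb6* rose by 2.17 (edgeR adjusted p = 0.00382) and *Ephb1* had 9.37 and 4.34 CPM in control and no count in the libraries labelled knockout, at least 28.4-fold lower (edgeR adjusted p = 0.00288). Of 16 Notch pathway genes 3 rose (median 0.41), and none was called higher without the second library labelled knockout or without treated control replicate 2, while without treated control replicate 1 there were 5. After GC correction the median of the Notch genes was 0.16, with 2 called higher and 1 lower. The Notch ligand *Jag1* rose from 329.7 and 209 CPM to 410.4 and 701 CPM (log2 fold change 1.04, SE 0.27, edgeR adjusted p = 0.0332). Untreated, *Jag1* stood at 52.1 and 66.5 CPM against 38.8 and 38.0 CPM. Of 22 Wnt pathway genes 7 rose and 1 fell (median 0.26). The R-spondin receptor *Lgr6* rose from 11.9 and 11.7 CPM to 49.1 and 38.1 CPM (log2 fold change 1.88, edgeR adjusted p = 0.00354), and *Axin2*, a feedback target of Wnt, fell from 5.53 and 2.33 CPM to 0.734 and 1.11 CPM (log2 fold change −2.08, edgeR adjusted p = 0.0282). Without the second treated library labelled knockout 1 Wnt pathway gene was called higher, and without treated control replicate 2 there were 4.

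Of 21 glycolysis genes 3 rose and 3 fell (median −0.08), with isoforms of the same step on both sides. After GC correction 3 rose and 5 fell, and without the second treated library labelled knockout 3 were called higher and none lower. Hexokinase 1, *Hk1*, rose from 71.8 and 94.6 CPM to 216 and 209 CPM (log2 fold change 1.35, SE 0.16, edgeR adjusted p = 0.00163). The muscle-type phosphofructokinase *Pfkm* rose from 130.1 and 130.4 CPM to 257 and 234 CPM, by 0.91 (edgeR adjusted p = 0.00467), while the platelet type *Pfkp* fell from 15.6 and 23.6 CPM to 8.23 and 8.74 CPM, by 1.21 (edgeR adjusted p = 0.0242). *Pfkfb4*, which makes and breaks the activator of phosphofructokinase, rose by 1.44 (edgeR adjusted p = 0.0067). The brain-type aldolase *Aldoc* fell by 3.09 (edgeR adjusted p = 0.0073) and lactate dehydrogenase *Ldha* from 1545 and 1390.3 CPM to 1079 and 880.1 CPM, by 0.58 (edgeR adjusted p = 0.0313). Of 27 genes of cholesterol synthesis and uptake 3 rose (median 0.09), among them *Srebf1*, a master regulator of lipid synthesis, from 67.2 and 59.8 CPM to 171 and 155 CPM (log2 fold change 1.36, SE 0.16, edgeR adjusted p = 0.00159). In untreated cells *Srebf1* differed by 0.34. Cholesterol genes called higher numbered 6 without treated control replicate 1 and 1 without the second treated library labelled knockout.

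Of 78 cytosolic ribosomal protein genes 18 fell and 1 rose (median −0.32), of 76 nuclear-encoded respiratory chain genes 9 fell and none rose (median −0.23), and of 46 ribosome biogenesis genes 8 fell and 2 rose (median −0.21). Without the first or the second library labelled knockout 3 ribosomal protein genes were called lower, and 3 and none of the respiratory chain, and without treated control replicate 2 there were 13 and 5. Ribosome biogenesis genes called lower numbered 4 without treated control replicate 2, and 2 and 1 without the first and the second library labelled knockout. Called higher in the respiratory chain were 3 without treated control replicate 1 and 3 after GC correction, and no ribosome biogenesis gene was called higher without the second library labelled knockout. After GC correction 3 ribosome biogenesis genes were called lower (median −0.07). *Rps3* fell from 1780 and 1395 CPM to 885 and 958 CPM (log2 fold change −0.78, SE 0.15, edgeR adjusted p = 0.0101), and *Rps3a* fell by 1.43 (edgeR adjusted p = 0.00575), both parts of the small subunit. *Rps16*, which rose, had 1.22 and 4.34 CPM in treated control cells and 21.7 and 20.8 CPM in those labelled knockout (log2 fold change 2.95, SE 0.45, edgeR adjusted p = 0.00467). Ribosomal protein genes have many processed copies in the genome, so that these counts are uncertain.

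Among stress lists, 2 of 24 heat shock chaperones rose and 4 fell (median −0.31), and 5 of 41 genes of the amino acid stress response and tRNA synthetases rose and 2 fell (median −0.10). Of 32 NRF2 antioxidant genes 1 rose and 3 fell (median −0.20), of 21 hypoxia-inducible genes 3 fell (median −0.09), of 27 apoptosis regulators 1 rose (3 after GC correction) and 1 fell (median −0.10), and of 23 interferon-responsive genes 3 rose and 3 fell (median 0.02). Of 22 YAP/TEAD targets 2 rose and 1 fell (median 0.18), and of 27 growth factors and receptors 1 rose and 1 fell (median 0.32). Circadian clock genes (17 tested) gave 3 higher and 1 lower (median 0.37), forkhead, Sox and Ets factors (31 tested) 3 and 1 (median 0.24), and S100 and annexin genes (21 tested) 4 and 3 (median −0.12). Splicing factor and mRNA decay genes (35 tested) gave 3 higher and 1 lower (median −0.08), and nuclear lamina genes (15 tested) 1 and 1 (median 0.18). Of 42 small nucleolar and Cajal-body RNAs 1 fell (median −0.35), and of 21 abundant nuclear non-coding RNAs 2 rose and 1 fell (median −0.21). After GC correction the median changed sign for hypoxia-inducible genes (0.13), YAP/TEAD targets (−0.02), and splicing factor and mRNA decay genes (0.12). It also changed sign for interferon-responsive genes (−0.13) and abundant nuclear non-coding RNAs (0.05). Beside all of these lists, 8.47% of all genes tested were called higher and 6.57% lower.

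The small counts of these lists moved with single libraries, given here in the order treated control replicate 1, treated control replicate 2, the first and the second treated library labelled knockout left out. Heat shock chaperones gave 2, 2, 2 and 0 higher and 7, 1, 1 and 0 lower, and the amino acid stress and tRNA synthetase list 7, 5, 4 and 0 higher and 9, 1, 2 and 1 lower. NRF2 genes gave 4, 1, 3 and 1 higher and 4, 2, 0 and 1 lower, and hypoxia-inducible genes 2, 0, 1 and 0 higher and 4, 2, 2 and 0 lower. For interferon-responsive genes the numbers were 3, 1, 1 and 1 higher and 2, 1, 0 and 0 lower, and for apoptosis regulators 3, 2, 1 and 1 higher and 1, 1, 0 and 0 lower. No YAP/TEAD target was called higher without the second library labelled knockout, where 4 were lower, and the numbers higher were otherwise 4, 1 and 2. Growth factors and receptors gave 3, 0, 4 and 0 higher, circadian clock genes 3, 1, 3 and 0, forkhead, Sox and Ets factors 5, 0, 4 and 0, splicing and mRNA decay genes 4, 3, 1 and 0, and nuclear lamina genes 5, 0, 0 and 0. S100 and annexin genes gave 3, 3, 3 and 2 higher and 2, 4, 1 and 1 lower. The lists of clock, forkhead, lamina, small nucleolar and abundant nuclear RNA genes each had 1 member called lower, and each lost it without at least 1 of the treated libraries.

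Both increases among the abundant nuclear RNAs were in RNAs retained in the nucleus. *Malat1*, which gathers at nuclear speckles, had 14511 and 16695 CPM in treated control cells and 27561 and 23339 CPM in those labelled knockout (log2 fold change 0.71, SE 0.13, edgeR adjusted p = 0.0097). *Neat1*, the scaffold of paraspeckles, rose from 384 and 415 CPM to 903 and 592 CPM (log2 fold change 0.90, SE 0.19, edgeR adjusted p = 0.015). In untreated cells their differences were −0.04 and −0.18.

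After GC correction the interaction passed the test for 3 genes, *Scamp3* at 2.01 (edgeR adjusted p = 0.0141), *Gm15487* at 1.67 (edgeR adjusted p = 0.0299) and *Txn2* at 1.74 (edgeR adjusted p = 0.0282). With the replicate number added as a block to that fit it passed for none. *Scamp3*, a membrane carrier protein of recycling endosomes, had 19.5 and 16.7 CPM in treated control cells and 55.2 and 60.8 CPM in those labelled knockout, while in untreated cells the order was the opposite, 58.5 and 51.5 CPM against 39.7 and 42.5 CPM. Mitochondrial thioredoxin, *Txn2*, had 27.5 and 32.3 CPM against 95.6 and 101 CPM after TGF-β, and 70.3 and 70.7 CPM against 73.0 and 70.6 CPM untreated. The mitochondrial ribosomal protein gene *Mrpl12* had a like profile, with 20.8 and 30.4 CPM against 86.7 and 86.1 CPM after TGF-β and 60.6 and 54.4 CPM against 64.4 and 67.4 CPM untreated. In *Scamp3*, *Txn2* and *Mrpl12* the treated control libraries were the lowest group. *Celf2*, a splicing regulator, was lower in the libraries labelled knockout both with TGF-β, at 17.7 and 15.1 CPM against 3.10 and 2.70 CPM, and without it.

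The genes with the largest increases named here had positive differences in untreated cells as well. *Prune2* had 0.656 and 0.212 CPM in treated control cells and 34.6 and 43.0 CPM in those labelled knockout (log2 fold change 6.40, SE 0.45, edgeR adjusted p = 0.00022), beside 5.69 untreated. The gel-forming mucin *Muc5b* rose from 1.59 and 1.16 CPM to 24.8 and 44.1 CPM (log2 fold change 4.62, edgeR adjusted p = 0.00109), and *Sprr1b*, a cross-linked precursor of the cornified envelope, from 27.7 and 25.5 CPM to 305 and 257 CPM (log2 fold change 3.40, SE 0.19, edgeR adjusted p = 0.000138). The sorting receptor *Sorcs2* also rose by 3.40 (edgeR adjusted p = 0.000157) and *Spats2l* by 3.22 (edgeR adjusted p = 0.000555). *Prl2c3*, proliferin, rose from 3.65 and 6.03 CPM to 94.6 and 70.3 CPM (log2 fold change 4.10, edgeR adjusted p = 0.00051), but has near-identical copies that may share its reads.

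Among the largest decreases, *Fam111a*, a replication-associated protease, had 17.6 and 19.8 CPM in treated control cells and no count in those labelled knockout, at least 77.5-fold lower (edgeR adjusted p = 0.000374). *Mal2*, a transcytosis protein of polarised epithelium, had 11.1 and 10.5 CPM against no count, at least 44.6-fold lower (edgeR adjusted p = 0.000812). *Palmd* had 140 and 218 counts in treated control cells and 2 and 0 counts in those labelled knockout, a ratio of 221 with a counting interval of 60.8 to 1833 (95%). The imprinted gene *Peg3* fell from 260.1 and 345 CPM to 9.54 and 5.56 CPM (log2 fold change −5.32, SE 0.33, edgeR adjusted p = 0.000157), and the endocytic adaptor *Dab2*, which also binds SMADs, from 10.8 and 9.31 CPM to 0.245 and 0.636 CPM (log2 fold change −4.47, edgeR adjusted p = 0.00091). *Fam111a*, *Mal2* and *Palmd* were at 0 in both untreated libraries labelled knockout as well.

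The decreases were unevenly spread over the chromosomes. On chromosome 3, 124 of 641 tested genes were called lower (19.3%), and 14.8% after GC correction, with a median log2 difference of −0.34, which was −0.34 also in untreated cells. On chromosome 7, 120 of 943 genes were called lower (12.7%), and 16.4% after GC correction, with a median of −0.14, which was −0.25 in untreated cells. On the other chromosomes between 2.88 and 7.82% of the tested genes were called lower, and between 2.12 and 11.1% after GC correction, with chromosome 13 the highest of them. The part of gene copy number in these shares was not tested.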

How the data were processed

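For 8 libraries the authors deposited a table of raw read counts per gene, not normalized, and every column was mapped to a sample by its label. Per the paper's methods, reads were aligned with subjunc, and the submitters' processing notes also name HISAT2 and limma, with mm10 as the build. How reads were counted, and whether by strand, is not given in the sources used here, and paper and labels differ on library kit, sequencer and read layout. Gene identifiers are those of GENCODE vM1 (NCBIM37), which gave symbols, positions, exonic GC content and 3′ UTRs.

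Levels (CPM, TMM factors) and quasi-likelihood tests came from edgeR 4.0.16 under R 4.3.3, without a replicate block. Genes passing filterByExpr were kept, and a model of the 4 groups was fitted to all 8 libraries, since each group had only 2. Adjustment was by the Benjamini-Hochberg method over all 13028 genes, and the thresholds on adjusted p and fold change are those of the paper. A standard error is the absolute log2 fold change divided by the square root of F. The fit had a biological coefficient of variation of 0.180, 4 residual and 5.50 prior degrees of freedom. For GC correction a natural spline with 5 degrees of freedom was fitted to each library and entered as offsets. A fold against a group at 0 is a bound against 3 counts per library, averaged over the group.

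The comparison and the 46 gene lists were chosen with earlier results of these data known. In each list up to 6 called genes were named (all, or the 3 with the largest change in each direction) with up to 2 abundant members not called, and over all genes those with the largest changes, the smallest interaction p and the highest levels. Not every gene so chosen is reported here. Alternatives were DESeq2 1.42.0, limma-voom (limma 3.58.1), RLE factors, no filter, a mean of at least 10 counts, thinned counts, the treated libraries alone, a replicate block, other fold thresholds and leaving out each library. Those with GC correction, GC and length correction or crossed replicate numbers were chosen after seeing the data. On simulated counts without a GC trend (12714 genes tested), the test recovered 55 of 100 genes with a log2 change of 1 and 99 of 100 with a change of 2. A GC trend set by hand was also simulated (12847 genes tested). It was steeper than that of these libraries. For treated control replicate 2 and the second treated library labelled knockout it ran in the opposite direction. On it the uncorrected test recovered 1 and 58 of 100, and the GC-corrected test 51 and 99. These numbers do not measure how the test performs on the libraries themselves.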

Additional observations from a re-analysis of the deposited data

Results flagged for a closer look

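For 5 of the genes named above, the 2 genotypes lay apart without overlap in opposite directions with and without TGF-β. The log2 difference of the genotype effects was 2.10 for *Scamp3* (edgeR adjusted p = 0.0615), 1.67 for *Jag1* (edgeR adjusted p = 0.43), 1.08 for *Neat1* (0.43), 0.94 for *Ppl* (0.43) and 0.74 for *Malat1* (0.43), all adjusted by edgeR. *Arc* showed the same order at 6.17 (edgeR adjusted p = 0.497), but all of its untreated values lay under the floor of 3 counts, so that no direction is read from them and the value depends on the prior count. None passed the test of the difference in the uncorrected fit, and *Scamp3* passed after GC correction but not with a replicate block added to it. Over all genes, those under the floor included, 512 of 13028 (3.93%) lay apart in this way, 42 of them called in the treated comparison.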

How the results depend on the processing

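With 2 libraries per group, calls rest on a spread shared across genes. Against 1103 genes called higher and 856 lower after TGF-β, no filter on low counts gave 1667 higher, the treated libraries alone 262 and 148, an absolute log2 fold change above 1 gave 498 and 344, GC and length correction 723 higher, and GC correction in the treated libraries alone 401 and 341. Leaving out a library gave 335 to 1622 higher and 142 to 1140 lower, and leaving out any 1 untreated library gave 542 to 555 lower. In untreated cells, against 134 higher and 104 lower, DESeq2 called 214 and 195, limma-voom 78 and 59, no filter 328 and 428, the untreated libraries alone 367 and 437, and leaving out a library 22 to 204 and 18 to 186. The interaction, with 0 genes, gave 23 in DESeq2, 211 with no filter, 3 after GC correction, 4 after GC and length correction, and 0 to 6 with a library left out. The causes were not tested. Among genes not called, the sign reversed for *Pcna* after GC and length correction (0.0135), for *Ptgs2* after GC correction (0.0163 in all libraries, 0.0292 in the treated ones alone, and −3.74 to 1.60 with a library left out), for *Ccl2* (0.12 after GC correction, 0.37 with length, 0.13 in the treated libraries alone, and −2.69 to 0.89 with a library left out) and for *Pdgfb* (−0.0855 after GC correction with a replicate block, −0.0394 with GC and length correction, and −1.38 to 1.37 with a library left out).

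The treated libraries with the same replicate number deviated from their group means in opposite directions (Pearson r = −0.47 across genes), so the numbers did not pair them. The replicate block gave 858 higher and 632 lower after TGF-β and 80 higher in untreated cells, and no call of the interaction. With the numbers crossed in a replicate block, 1539 higher and 1270 lower were called after TGF-β, 273 higher and 267 lower were called in untreated cells and 5 interactions. Of 100 called genes followed singly, 99 kept their call in DESeq2, 100 in limma-voom, 96 with the block (not *Cdkn2a*, *Snai1*, *Jag1* and *Axin2*, at edgeR adjusted p = 0.0502 to 0.0623), 94 after GC correction, 61 in the treated libraries alone and 60 under each omission of a library, and none changed sign.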

Other observations

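Of 966 tested pseudogenes 71 were called lower and 8 higher in the treated libraries labelled knockout (median log2 difference −0.32), beside 766 lower and 1085 higher of 11424 protein-coding genes (median 0.02). The median was 0.22 for 33 miRNA genes, with 2 called higher and 3 lower. Of 41 small nuclear RNAs 2 were called lower and none higher (median −1.06), and of 235 long intergenic non-coding RNAs 6 were lower and 5 higher (median −0.07). Reads of pseudogenes may be shared with their parent genes.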
